A study of Homo sapiens with 6 samples.

Results

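The cytosolic heat shock proteins and HSF1 are 10 genes, chosen by symbol: the transcription factor HSF1, the chaperones and cochaperones HSPA1A, HSPA1B, HSPA8, DNAJB1, HSPH1, HSP90AA1, HSPB1 and BAG3, and the small heat shock protein CRYAB. All 10 are among the 23152 genes of the deposited count table. RNA was sequenced from T24 cells, an established human bladder cancer line, carrying either an empty vector (vector, n = 3) or an RNF112 overexpression construct (oeRNF112, n = 3). RNF112 is a RING finger E3 ubiquitin ligase, and the comparison asks which transcripts differ when it is overexpressed. Both groups were grown in the same serum-containing medium at 37℃ and neither was labelled as heat-treated. The treatment text attached to all 6 samples speaks of siRNA transfection with Lipofectamine, while the titles name an empty vector and RNF112 overexpression, and the study describes its overexpression models as made with plasmids. Nothing in the labels says that the replicates came from separate cultures, so the p-values measure the spread between these samples, which may be technical.

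HSF1 is the main transcription factor of the heat shock response. In unstressed cells it is held inactive in complexes with chaperones, and unfolded protein draws those chaperones away, after which HSF1 forms trimers and binds heat shock elements, which are inverted repeats of GAA and TTC. Its targets are the HSP70, HSP40, HSP110 and HSP90 chaperones, small heat shock proteins and BAG3. Cancer cells commonly hold high levels of these chaperones without heat. HSF1 activity is set mostly on the protein, so the mRNA of HSF1 reports little on it, while the mRNAs of its targets are its usual readout.

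Upstream sequence is shown for the pair HSPA1A and HSPA1B, which are near copies of each other, for HSPA8 and HSPH1, which differed between the groups, and for HSPA6, an HSP70 gene close to silent in vector. Each is the 250 bases before the RefSeq start in build GRCh38.p14, read 5′ to 3′ on the gene's strand, with every GAANNTTC or TTCNNGAA in capitals. They lie at chr6:31815293-31815542 (plus strand), chr6:31827488-31827737 (plus), chr11:123062137-123062386 (minus), chr13:31162389-31162638 (minus) and chr1:161524290-161524539 (plus), in the order printed.
HSPA1A: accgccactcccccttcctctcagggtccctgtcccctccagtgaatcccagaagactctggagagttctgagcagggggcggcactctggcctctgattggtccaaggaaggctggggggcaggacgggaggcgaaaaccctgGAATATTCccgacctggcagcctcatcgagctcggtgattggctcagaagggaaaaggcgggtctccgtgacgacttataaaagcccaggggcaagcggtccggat
HSPA1B: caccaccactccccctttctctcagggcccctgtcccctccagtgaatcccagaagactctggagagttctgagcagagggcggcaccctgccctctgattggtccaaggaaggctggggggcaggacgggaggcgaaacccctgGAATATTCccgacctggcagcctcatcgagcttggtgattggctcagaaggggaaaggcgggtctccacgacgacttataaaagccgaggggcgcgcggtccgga
HSPA8: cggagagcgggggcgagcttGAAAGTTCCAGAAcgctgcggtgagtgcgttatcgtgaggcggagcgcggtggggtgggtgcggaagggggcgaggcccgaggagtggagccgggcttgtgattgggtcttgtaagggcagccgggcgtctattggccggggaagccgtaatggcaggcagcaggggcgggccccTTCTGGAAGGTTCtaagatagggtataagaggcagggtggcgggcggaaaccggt
HSPH1: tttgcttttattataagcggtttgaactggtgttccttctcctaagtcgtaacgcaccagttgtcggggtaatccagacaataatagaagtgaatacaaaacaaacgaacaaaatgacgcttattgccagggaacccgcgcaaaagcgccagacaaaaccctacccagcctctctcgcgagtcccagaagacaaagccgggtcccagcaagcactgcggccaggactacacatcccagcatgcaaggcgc
HSPA6: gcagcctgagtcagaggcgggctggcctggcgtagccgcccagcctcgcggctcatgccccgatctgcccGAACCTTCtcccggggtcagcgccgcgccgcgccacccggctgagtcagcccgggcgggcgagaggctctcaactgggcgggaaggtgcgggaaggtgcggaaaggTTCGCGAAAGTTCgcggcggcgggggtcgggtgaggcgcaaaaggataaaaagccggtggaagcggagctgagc

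The HSPA8 window held 2 elements with 3 repeat units, GAANNTTCNNGAA starting 230 bases and TTCNNGAANNTTC starting 55 bases before the start. The HSPA6 window held 1 such element, starting 74 bases before the start. HSPA1A and HSPA1B each held a single GAANNTTC, at 106 and 105 bases before the start, and 235 of 249 aligned bases of their windows were identical (94.4%). In the HSPH1 window neither spelling was found. Only exact spellings within these 250 bases were searched, so elements with a mismatch or lying elsewhere were not counted. Windows were listed for 8 of the 10 genes, not for HSF1 and CRYAB, and 6 of the 8 held GAANNTTC or TTCNNGAA in at least 1 window, where DNAJB1 has 3 windows and HSP90AA1 has 2. An element of 3 units was present for 2 of them, HSPA8 and HSP90AA1. Of all 35116 RefSeq windows, 11.6% held GAANNTTC or TTCNNGAA and 0.441% held GAANNTTCNNGAA or TTCNNGAANNTTC, which contain the shorter spellings. Both short spellings are their own reverse complement, and the long ones are the reverse complements of each other, so both strands were covered. Of the 50 tested genes with an element of 3 units, 5 were higher and 9 lower in oeRNF112 by the test described next (28.0%), with a median log2 fold change of -0.06. The 5 included HSPA6, which passed the filter on low counts only through its oeRNF112 counts, and the 9 included HSPA8. Of all 11415 tested genes with a listed window, 18.0% were called.

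RNF112 had 27, 19 and 24 counts in vector and 29753, 36963 and 31712 counts in oeRNF112, as the labels say, and may include reads from the construct. Total counts were between 40029547 and 41259569. Counts were scaled with edgeR's TMM factors and compared over the 14467 genes that passed its filter on low counts, with the quasi-likelihood test, Benjamini-Hochberg adjustment over all of them and an adjusted p under 0.05 as a call. By this test 2620 genes differed. The epithelial keratins KRT7, KRT8, KRT18 and KRT19 were abundant in every sample, with between 5405 and 64094 counts, whereas CDH1, UPK2 and UPK3A had at most 7 counts. KRT7 and KRT18 were lower in oeRNF112, at -0.48 and -0.51 on the log2 scale (adjusted p = 0.0226 and 0.0130), while EPCAM, another epithelial marker, was higher, at 0.84 (adjusted p = 0.0208). The 5 leukocyte markers summed to between 4.39 and 5.50 RPKM in vector and between 3.04 and 4.14 RPKM in oeRNF112, with CD3E at 0 in 5 of 6 samples and LAPTM5 called lower at -0.88 (adjusted p = 0.0308), and the 6 fibroblast and endothelial markers summed to at most 1.86 RPKM. Whether these markers have a part in the results below was not tested.

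Per gene length, 3 of the 10 genes stood far above the others in both groups. In RPKM, which divides the count by gene length and total count, HSPA8 (the constitutive HSP70, which folds new proteins and uncoats vesicles) was at 794 ± 49.7 in vector (SD, n = 3), HSP90AA1 (the heat-inducible HSP90) at 438 ± 25.1 and HSPB1 (HSP27, an ATP-independent holdase) at 328 ± 54.0. HSF1 followed at 50.9 ± 3.52. HSPH1 (the HSP110 that exchanges nucleotide on HSP70), DNAJB1 (an HSP40 that delivers substrates to HSP70) and BAG3 (a cochaperone that links HSP70 to autophagy) were at 29.8 ± 0.990, 29.2 ± 1.14 and 23.9 ± 0.752. The heat-inducible HSP70 genes HSPA1B and HSPA1A were at 12.7 ± 0.467 and 7.16 ± 0.438, and CRYAB (alpha-B crystallin) had 1 or 2 counts in each vector sample. The levels of HSPA1A and HSPA1B, and so their places, depend on how reads that fit both were counted, which is not known. The RPKM of HSPH1 and DNAJB1 overlapped across the vector samples and no other neighbours in this order did. In oeRNF112 the order was the same and no neighbours overlapped. The 10 genes held between 0.398% and 0.447% of all counts, of which HSPA8 and HSP90AA1 made up between 79.7% and 83.1%.

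**Figure D1:**
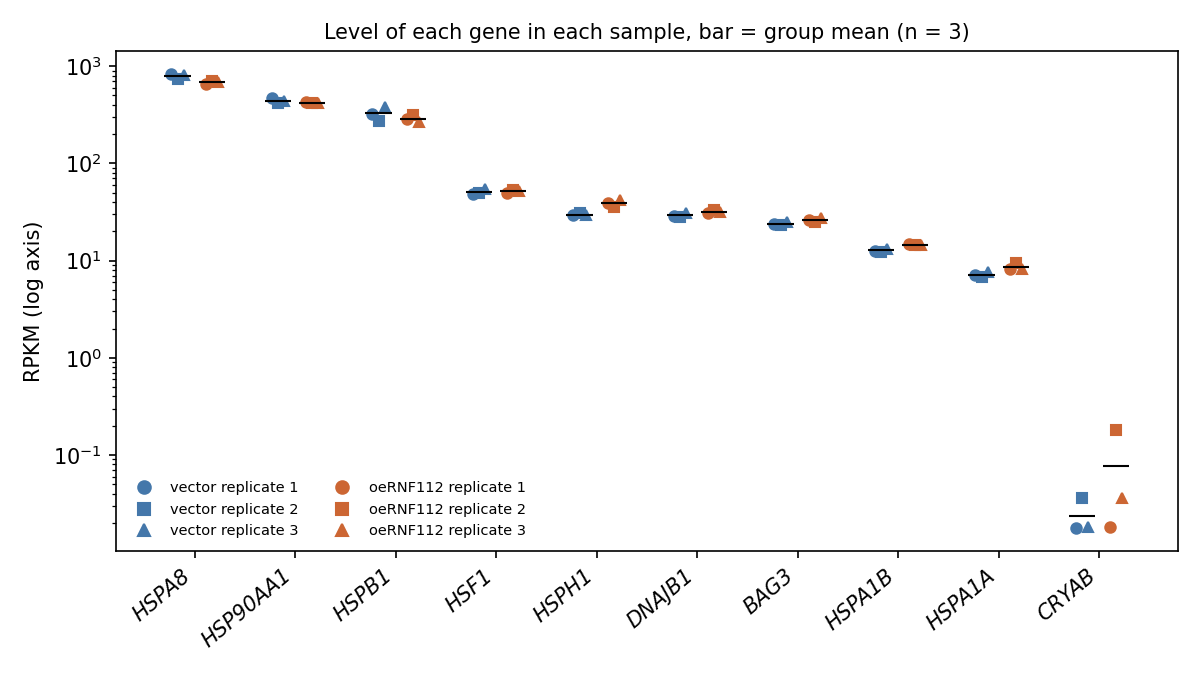
RPKM (log axis) of the 10 genes in each of the 6 samples, with points for single samples and bars for the means of the 3 vector and 3 oeRNF112 samples. HSPA8 lay between 660 and 826 RPKM in all samples, HSPA1A between 6.79 and 9.53, and CRYAB at or below 0.179.

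Between oeRNF112 and vector, 1 of the 9 tested genes rose, HSPH1, and 1 fell, HSPA8, while HSF1, HSPA1A, HSPA1B, DNAJB1, HSP90AA1, HSPB1 and BAG3 did not pass the test. The 10th gene, CRYAB, was too low to be tested. Over all genes tested 18.1% were called, 9.97% higher and 8.14% lower, so that 2 calls among 9 genes is near the background. The median log2 fold change of the 9 was 0.02, against 0.0027 over all genes. These are bulk samples, in which fewer cells of a type and less RNA per cell cannot be told apart.

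HSPA8 had 1969, 1703 and 1953 normalised CPM (counts scaled to a common library size with the TMM factors) in vector replicates 1 to 3 and 1457, 1570 and 1490 in oeRNF112 replicates 1 to 3. All oeRNF112 samples lay below all vector samples, with vector replicate 2 nearest to them. The log2 fold change was -0.32 (95% interval -0.53 to -0.10, edgeR adjusted p = 0.0456), or 80.3% of vector. HSPA8 was among the most abundant transcripts, at rank 45 of all genes tested. The adjusted p was under 0.05 in 4 of 15 alternative fits. It was 0.0885 when library totals were used for scaling, 0.236 with the replicate number as a block and above 0.05 in 5 of the 6 fits that left out a sample, the exception being vector replicate 2 (0.0208). The fold change stayed between -0.38 and -0.22 in all 15.

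HSPH1 moved the other way. It had 174, 178 and 173 normalised CPM in vector and 216, 199 and 226 in oeRNF112, a complete separation with little spread in vector (coefficient of variation 1.51%). The log2 fold change was 0.29 (95% interval 0.10 to 0.47, edgeR adjusted p = 0.0381), or 1.22-fold. The adjusted p was under 0.05 in 9 of 15 alternative fits, among them 2 of the 6 that left out a sample, without vector replicate 2 (0.0460) and without oeRNF112 replicate 2 (0.0341). It was 0.228 with the replicate block. The fold change lay between 0.25 and 0.38 in all 15.

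**Figure D2:**
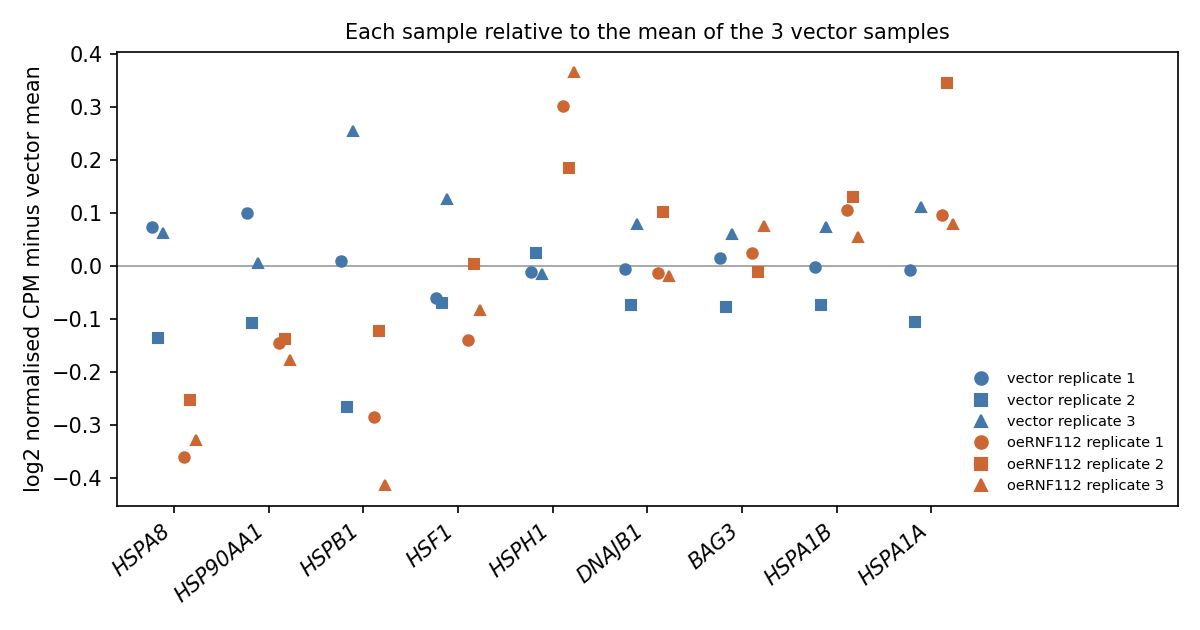
Normalised log2 CPM of the 9 tested genes in each sample minus the mean of the 3 vector samples, ordered by level. HSPA8 and HSP90AA1 in oeRNF112 lay below, and HSPH1 above, all 3 vector samples, and the groups overlapped for the other 6 genes.

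The heat-inducible pair HSPA1A and HSPA1B did not pass the test. HSPA1A had 17.6, 16.5 and 19.2 normalised CPM in vector and 19.0, 22.6 and 18.8 in oeRNF112. Its highest value was in oeRNF112 replicate 2 and the groups overlapped, with a log2 fold change of 0.18 (95% interval -0.07 to 0.43, adjusted p = 0.303). HSPA1B had 33.0, 31.4 and 34.8 in vector and 35.6, 36.2 and 34.4 in oeRNF112, where vector replicate 3 lay inside the oeRNF112 range (0.10, interval -0.10 to 0.29, adjusted p = 0.476). The intervals leave room for a 1.35-fold and a 1.23-fold rise. The counts of this pair are uncertain one by one, since 69.9% of all 100-base stretches of the HSPA1A transcript (GENCODE 29) occur unchanged in HSPA1B, and how the counting treated reads that fit both is not given in the sources used here. With both counts summed, the log2 fold change was 0.13 (edgeR adjusted p = 0.361). If reads that fit both genes were left out, the sum would be too low as well. HSPA1A also lies head to head with HSPA1L on the other strand.

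The inducible pair was also set against HSPA8 within each sample. The sum of HSPA1A and HSPA1B was 2.38%, 2.60% and 2.55% of the HSPA8 level (RPKM) in vector and 3.46%, 3.46% and 3.29% in oeRNF112. The groups did not overlap, the ratio was 1.36 times higher on average, and the exact permutation test (two-sided) gave p = 0.1, the smallest that 3 against 3 samples can give. Its denominator HSPA8 was itself called lower (-0.32), while the summed pair was at 0.13 and not called. The ratio is therefore not a result separate from that of HSPA8. This ratio is taken within a sample and does not depend on scaling. Its level, and the HSPA8 share that follows, depend on how reads shared by HSPA1A and HSPA1B were counted. HSPA8 made up between 96.0% and 96.2% of the summed RPKM of 7 cytosolic HSP70 genes in vector and between 94.9% and 95.4% in oeRNF112, with the HSP110 genes HSPH1, HSPA4 and HSPA4L left out.

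HSP90AA1 had 1911, 1656 and 1790 normalised CPM in vector and 1612, 1620 and 1577 in oeRNF112. The groups did not overlap, but vector replicate 2 lay close to oeRNF112 and the log2 fold change of -0.16 (95% interval -0.36 to 0.05) did not pass the test (adjusted p = 0.264). Its constitutive partner HSP90AB1 was at 92.2% of vector (adjusted p = 0.366). The ratio of HSP90AA1 to HSP90AB1 in RPKM was 0.864, 0.779 and 0.806 in vector and 0.781, 0.796 and 0.811 in oeRNF112, and overlapped (exact permutation test, two-sided, p = 0.7). Counting 9 genes, 3 were separated between the groups, HSPH1 above and HSPA8 and HSP90AA1 below, against 36.8% of all genes tested.

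HSPB1 varied more between the vector samples than the other 8 genes did. It had 263, 217 and 312 normalised CPM in vector, a coefficient of variation of 17.9%, and 214, 240 and 196 in oeRNF112. Vector replicate 2 fell inside the oeRNF112 range. The log2 fold change of -0.28 (95% interval -0.58 to 0.01) did not pass the test (adjusted p = 0.166), and it ranged from -0.41 without vector replicate 2 (adjusted p = 0.0225) to -0.15 without vector replicate 3 (adjusted p = 0.446). CRYAB had 1, 2 and 1 counts in vector and 1, 10 and 2 in oeRNF112, where the 10 counts of oeRNF112 replicate 2 made up most of the total. The other small heat shock genes in the table, HSPB6, HSPB7, HSPB8 and HSPB9, did not exceed 11 counts in a sample and were left untested, so HSPB1 was the one small heat shock protein tested in these cells.

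HSF1 itself had 114, 113 and 130 normalised CPM in vector and 108, 119 and 112 in oeRNF112. Vector replicate 3 was the highest and the other 5 samples lay within 107.7 and 118.9. The log2 fold change was -0.07 with TMM factors (95% interval -0.27 to 0.13, edgeR adjusted p = 0.597). With library totals it was 0.02 (edgeR adjusted p = 0.891), and neither passed the test. DNAJB1 had 123, 117 and 130 normalised CPM in vector and 122, 132 and 122 in oeRNF112. BAG3 had 64.0, 60.1 and 66.1 in vector and 64.4, 62.9 and 66.8 in oeRNF112. For both genes the groups overlapped. Their log2 fold changes were 0.02 (95% interval -0.16 to 0.21, adjusted p = 0.872) and 0.03 (interval -0.16 to 0.22, adjusted p = 0.837), and DNAJB1 went below 0 without vector replicate 2 (-0.01) and without oeRNF112 replicate 2 (-0.0040), and BAG3 without vector replicate 2 (-0.0099).

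**Figure D3:**
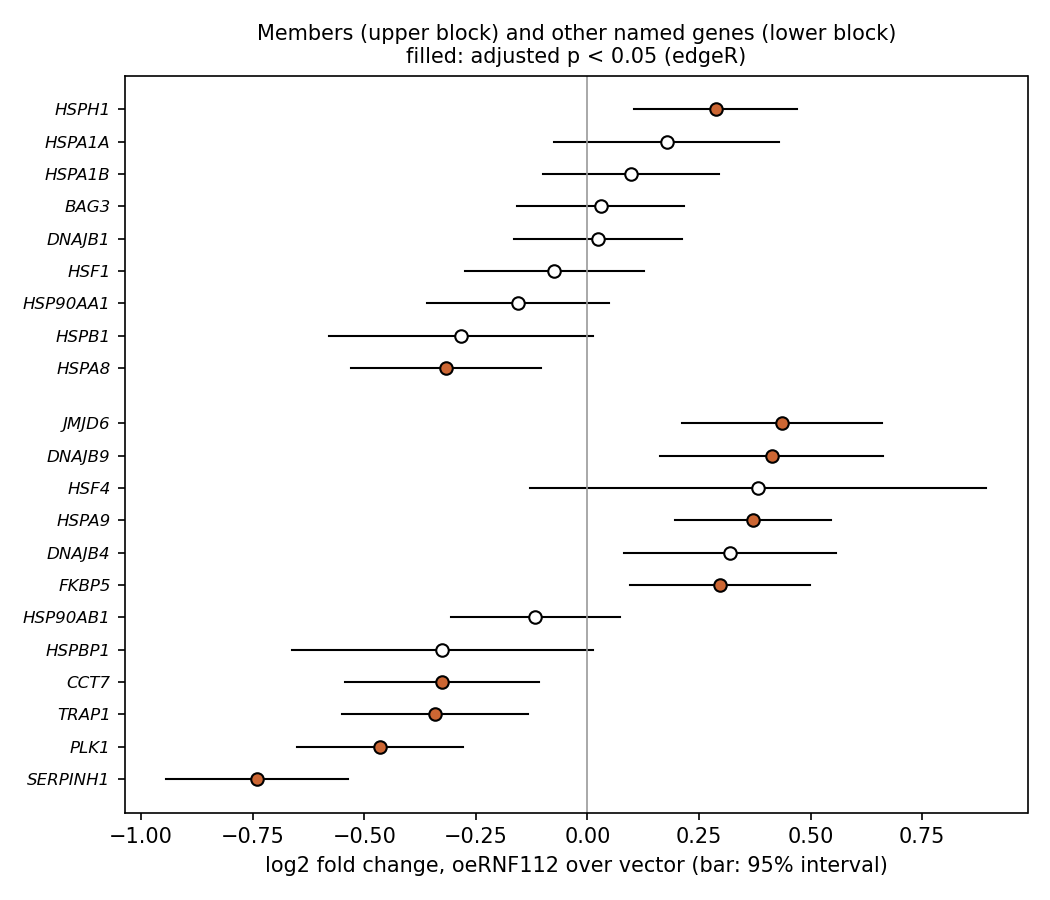
Log2 fold changes of oeRNF112 over vector with 95% intervals from edgeR's fit, for the 9 tested genes (upper block) and 12 other genes of the chaperone and HSF1 lists (lower block, drawn without HSPA6, whose counts were too low for this scale), with filled points at an adjusted p under 0.05. In the upper block HSPH1 (0.29) and HSPA8 (-0.32) are filled, and in the lower block SERPINH1 lies farthest from 0 of the 12 genes drawn (-0.74).

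Within the groups, some samples ranked alike across genes. Vector replicate 2 had the lowest value among the vector samples for 8 of the 9 genes, HSPH1 excepted, and vector replicate 3 had the highest for 6. In oeRNF112, replicate 2 had the highest value for 7 of the 9, all but HSPH1 and BAG3. The median deviation of the 9 genes from the vector mean was -0.076 on the log2 scale in vector replicate 2 and 0.075 in vector replicate 3, and between -0.018 and 0.004 in the oeRNF112 samples. The median over all genes was between -0.0033 and 0.0151 in every sample. The scaling also decided which groups were separated. In RPKM, which follows the library totals, HSPA1A, HSPA1B, DNAJB1, HSPH1 and BAG3 lay above vector in all oeRNF112 samples. HSPA8 lay below, and HSP90AA1, HSPB1, HSF1 and CRYAB overlapped. The share of all genes separated in RPKM was not computed, and the 36.8% given above is for normalised CPM. With library totals the median of all genes was 0.096 on the log2 scale, and of the 9 genes HSPH1 alone was called.

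The genes around the 10 were taken from hand-written lists. In 8 lists of heat shock factors, HSF1 regulators, cytosolic chaperones and further HSF1 targets, 62 genes other than the 10 were listed and 52 tested. Of these, 3 rose (HSPA6, which is described below and nearly without counts in vector, among them), 2 fell and 47 did not pass the test, a called share of 9.62% against 18.1% of all genes, and their median log2 fold change was 0.04. HSF4, the heat shock factor with the smallest p after HSF1 was set aside, was at 0.38 (adjusted p = 0.275). Among the 8 HSF1 regulators PLK1, a mitotic kinase that can phosphorylate HSF1, fell by 0.46 on the log2 scale (adjusted p = 0.00528), with all oeRNF112 samples below vector. FBXW7, a ubiquitin ligase subunit for HSF1 and for c-Myc, had 320, 383 and 293 counts in vector and 469, 380 and 526 in oeRNF112 and was not called (0.38, adjusted p = 0.0973).

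Among the 10 cytosolic HSP70 and HSP110 genes, HSPA6 stood apart. HSPA6 (at chr1:161524540-161526910 in GRCh38) encodes an HSP70 that is nearly absent without strong stress and is present in humans but not in mice. It had 1, 0 and 3 counts in vector and 23, 19 and 10 in oeRNF112. The 3 oeRNF112 samples were all above vector, and edgeR's test called it (adjusted p = 0.0110), but it passed the filter on low counts only through the oeRNF112 samples. From the summed counts of 4 and 52 the ratio was 13.1 (95% counting interval 4.83 to 49.95), which covers counting error only. Without vector replicate 1 the adjusted p was 0.0579, and without vector replicate 3, which held 3 of the 4 vector counts, the fitted log2 fold change went from 3.51 to 4.75. Its level remained very low, at most 0.244 RPKM, while the sum of HSPA1A and HSPA1B was at least 19.1 RPKM in each sample, and 27.6% of the 100-base stretches of its transcript also occur in the pseudogene HSPA7. HSPA1L, HSPA2, HSPA4, HSPA4L and HSPA14 did not pass the test. Of these HSPA2 was separated between the groups, at 0.69 on the log2 scale (edgeR adjusted p = 0.125), and the others overlapped.

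None of the 9 J-domain genes and none of the 8 genes of HSP70 exchange factors and cofactors was called by edgeR's test, DNAJB1 and BAG3 included. In the first list DNAJA4 and DNAJB4 had an unadjusted p under 0.05, and DNAJB4 went from 11.2 ± 0.633 to 14.01 ± 0.685 normalised CPM (SD, n = 3, adjusted p = 0.0646). DESeq2 called 0 genes of either list, and in the second list 0 genes had an unadjusted p under 0.05. Over all genes DESeq2 called 1643 higher and 1465 lower. The share of all genes with an unadjusted p under 0.05 was not computed. HSPBP1, an exchange factor for HSP70, was at -0.33 (adjusted p = 0.164). Of the 11 genes of HSP90 and its cochaperones FKBP5, an immunophilin of steroid receptor complexes that glucocorticoids induce, rose by 0.30 (adjusted p = 0.0473), a call lost in each of the 6 fits without a sample (adjusted p between 0.0502 and 0.159). Of 12 further HSF1 targets, JMJD6, a nuclear lysyl hydroxylase, rose by 0.44 (adjusted p = 0.0162, up to 0.0770 and called in 4 of the 6 fits without a sample), and SERPINH1, the collagen chaperone HSP47 of the endoplasmic reticulum, fell from 124, 121 and 138 to 78.7, 79.9 and 71.2 normalised CPM. Its log2 fold change of -0.74 (adjusted p = 0.000873) was past the threshold in all 15 alternative fits. In the HSP90 list and among the further HSF1 targets, DESeq2 also called CHORDC1 and UBB. In edgeR's fit these were at 0.30 and -0.35 and were not called (adjusted p = 0.0522 and 0.0702).

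Chaperones of other compartments are given for comparison. Of 7 mitochondrial chaperones HSPA9 (mortalin) rose by 0.37 (adjusted p = 0.0111) and TRAP1 (the mitochondrial HSP90) fell by 0.34 (adjusted p = 0.0323). Of 9 endoplasmic reticulum chaperones DNAJB9 rose by 0.41 (adjusted p = 0.0309). Of the 8 subunits of the CCT chaperonin, which folds actin and tubulin, CCT7 fell by 0.33 (adjusted p = 0.0443) and 7 had a fold change below 0, with a median of -0.20. Over all 14467 genes tested 18.1% were called, so 1 or 2 calls in lists of 7 to 9 genes are not far from the background. A fold change above 0 was found for 7294 of all genes tested, with a median of 0.0027. Of the 6 fits that left out a sample, TRAP1 was called in 1, CCT7 in 2, DNAJB9 in 2 and HSPA9 in 5, with adjusted p up to 0.126, 0.169, 0.104 and 0.0590, and TRAP1 and CCT7 were not called with library totals either. HSPA5, the HSP70 of the endoplasmic reticulum and a target of the unfolded protein response, was at 0.19 and not called (adjusted p = 0.145). The differences between these lists and the 10 genes were not tested.

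**Figure D4:**
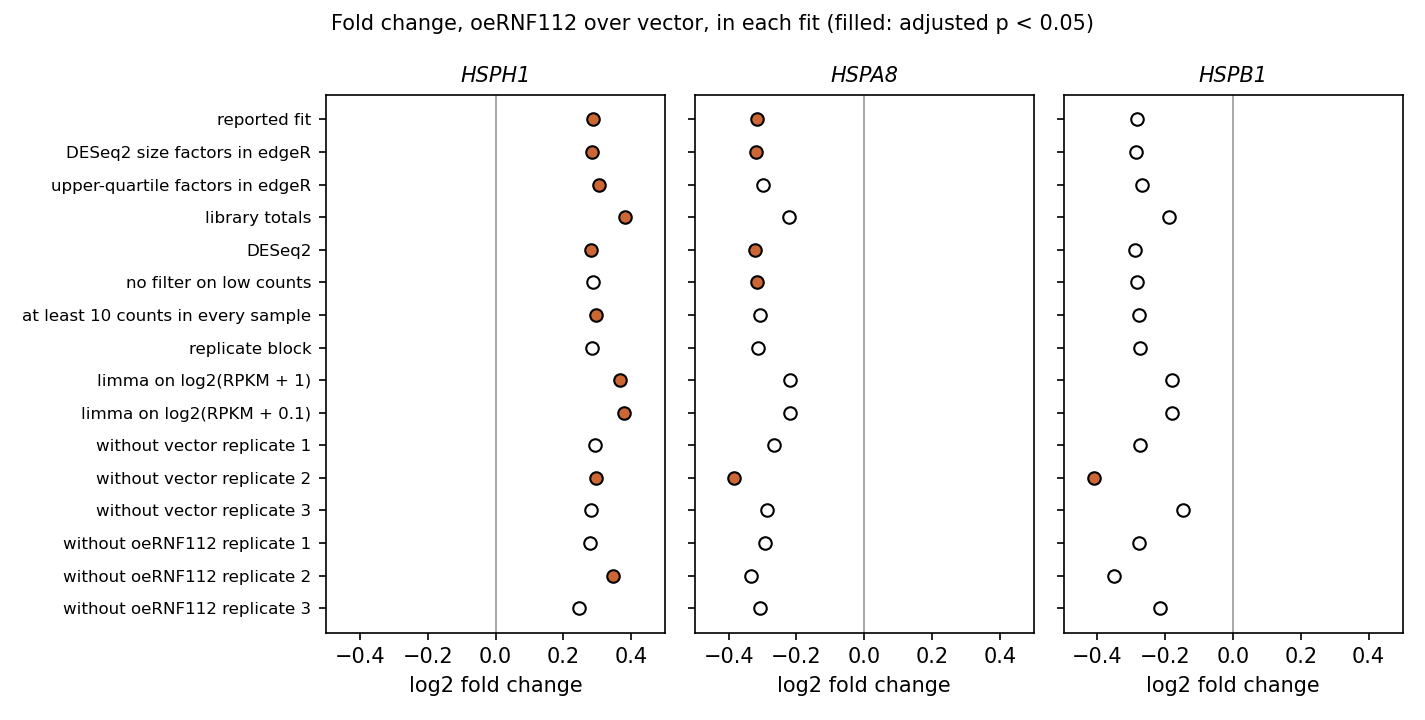
Log2 fold change of HSPH1, HSPA8 and HSPB1 (x axes) in the reported fit and 15 alternative fits (y axis), with filled points at an adjusted p under 0.05. HSPH1 lies between 0.25 and 0.38, HSPA8 between -0.38 and -0.22, and HSPB1 is filled in a single fit, without vector replicate 2 (-0.41).

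Genes with the most similar pattern across the 6 samples were searched among 9678 genes with a mean of at least 10 CPM. Nearest to HSF1 were COLGALT1, MED19 and ESS2, with Pearson correlations of 0.997, 0.988 and 0.981. Nearest to HSPA1A were PIGH, NFKBIE and DNAJC1, with 0.998, 0.989 and 0.987, of which DNAJC1 encodes a J-domain protein of the endoplasmic reticulum membrane. None of these 6 passed edgeR's test between the groups (adjusted p between 0.186 and 0.728). The 6 points share libraries and scaling, and the correlations are given as a description.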

How the data were processed

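Libraries of the 3 vector and 3 oeRNF112 samples were made with a stranded mRNA kit. Raw read counts and RPKM values were deposited by the authors for each gene. The submitters' processing notes name Trimmomatic 0.36, featureCounts, Subread 1.5.1 and GRCh38. The aligner, annotation, strand setting and treatment of reads that fit several genes are not given in the sources used here. For all 23152 genes the deposited RPKM followed from the count, the sample's total and 1 gene length, within a relative tolerance of 1e-04. No 2 samples were copies of each other.

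Counts were compared with edgeR 4.0.16 in R 4.3.3 (filterByExpr, TMM, quasi-likelihood test, Benjamini-Hochberg over 14467 genes), without a block. A count of 0 allows 3 counts, or 0.0727 to 0.0749 CPM. Counts were also simulated, with a dispersion set by hand, 200 changed genes and 14475 genes tested. There edgeR recovered 58.6% of the changes of 0.5 and 97.0% of those of 1 (log2), with 8 false calls among 163. In the data 2620 genes were called, and no change under 0.5 was simulated. These rates therefore do not describe changes of the size seen for HSPA8 and HSPH1. Alternatives were DESeq2 1.42.0, limma 3.58.1 on log2(RPKM + 1) or log2(RPKM + 0.1) above a mean RPKM of 0.1, other size factors and filters, a replicate block and each sample left out. Deviations from the group means correlated at -0.116, -0.363 and -0.296 between samples sharing a replicate number, which was not taken as pairing.

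Promoter windows come from RefSeq (GRCh38.p14), and transcripts and gene positions from GENCODE 29 (GRCh38). The 10 genes and the lists were chosen with earlier results of these data known. Other genes named are HSP90AB1, those of the lists other than marker lists called by edgeR, at most 4 a list, or the one with the smallest p, plus the 3 most similar to HSF1 and to HSPA1A. Marker genes could be named with their levels. FBXW7, DNAJA4, CHORDC1, UBB and HSPA5 were named after their values had been seen, as were untested or uncalled HSP70 and HSPB genes. HSPB2, HSPB3, CRYAA and KRT5 are on the lists but not in the table used here.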

Additional observations from a re-analysis of the deposited data

How the results depend on the processing

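SERPINH1 was called in 15 of 15 alternative fits and PLK1 in 14, against 9 for HSPH1 and 4 for HSPA8. HSPA8 stayed negative but missed the threshold with upper-quartile factors (-0.30), library totals (-0.22), at least 10 counts in every sample (-0.31) and limma with either pseudocount (-0.22 and -0.22), so that 0 of the 9 genes were called lower there. HSPH1 missed it without a filter on low counts (0.29), where 0 were called higher. HSF1 turned from -0.07 to 0.0197 with library totals, 0.0206 with limma on log2(RPKM + 1) and 0.0210 on log2(RPKM + 0.1). Over all genes the number called lower fell from 1178 to 659 with library totals and to 646 and 652 with limma.

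With the replicate number as a block, 618 genes were called higher and 258 lower, HSPA8 was at -0.31 (adjusted p = 0.236) and HSPH1 at 0.29 (adjusted p = 0.228), so that 0 of the 9 genes were called in either direction. The replicate numbers are shared numbers only.

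The medians of lists shifted with library totals, limma on log2(RPKM + 1) and limma on log2(RPKM + 0.1), in that order: J-domain proteins 0.160, 0.157 and 0.160, exchange factors 0.0624, 0.0529 and 0.0630, HSP90 and cochaperones 0.131, 0.127 and 0.133, mitochondrial chaperones 0.0166, 0.0174 and 0.0175, endoplasmic reticulum chaperones 0.0365, 0.0407 and 0.0412, and CCT -0.109, -0.108 and -0.108. For HSP70 and HSP110 it was 0.289 with library totals. The median of all genes was 0.0962 with library totals. For limma it was not computed, so the limma medians of the lists have no background here.

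Leaving out each sample in turn gave 702 to 1841 genes higher and 359 to 1546 lower, and 0 to 1 of the 9 genes higher and 0 to 2 lower. HSPA8 ranged from -0.38 to -0.27, HSPH1 from 0.25 to 0.35, DNAJB1 from -0.0142 to 0.0650 and BAG3 from -0.0099 to 0.0618. The list medians ranged from -0.116 to 0.00105 for exchange factors, from -0.0497 to 0.0788 for HSP90 and cochaperones and from -0.0556 to 0.00181 for endoplasmic reticulum chaperones. Leaving aside HSPA8 and HSPH1, 314 values of 21 named genes were compared under the alternatives. Of these values, 265 kept direction and side of the threshold, 38 lost the call, 5 gained it and 6 turned sign. HSPA8 lost the call in 11 of 15 alternatives and HSPH1 in 6. The cause was not tested. HSPA6 was not tested with at least 10 counts or by limma. Depth limits what can be said of CRYAB and HSPA6.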
